A study of Homo sapiens with 2 samples.

Results

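The HOX genes stand in 4 clusters of the human genome, HOXA, HOXB, HOXC and HOXD, and several antisense transcripts are annotated between and across them. The members described here were the 39 HOX genes and the antisense transcripts HOTAIR, HOTTIP, HOTAIRM1 and HOXA11-AS, taken by name. All 43 had a row among the 64081 genes of the deposited table. The cells were LNCaP, an established line from a lymph node metastasis of a prostate carcinoma, grown for 48 h without androgen in medium with 10% charcoal-stripped serum and 10 mM HEPES. Their poly(A)+ RNA, from 2 biological replicates, was read as strand-specific pairs. The table holds 1 column of counts for both replicates together, so no value has a replicate error, no other condition stands beside it, and no test was made.

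HOX genes encode homeodomain transcription factors that give cells their position along the body axis. The genes of a cluster point the same way and lie in the order in which they act, with paralogue group 1 at the 3′ end and group 13 at the 5′ end, so that anterior, central and posterior genes follow each other along the chromosome. Antisense transcripts start among them on the other strand: HOTAIR is known for its link to Polycomb repression, HOTTIP for its link to the activator WDR5, HOTAIRM1 for myeloid differentiation, and HOXA11-AS for its overlap with HOXA11. In the prostate, HOXB13 is a lineage factor of the luminal epithelium.

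The homeobox is what the 39 HOX genes share in sequence, and its core is printed for 4 genes that the results turn on, to show how alike members of different clusters are. The lines give the coding strand of GRCh37, with the core TGGTTNCANAANNG in capitals and 15 nt on either side. HOXA2 lies at chr7:27140880-27140923 and HOXA11 at chr7:27222467-27222510, both on the minus strand. HOXB13 lies at chr17:46804192-46804235 on the minus strand and HOXC13 at chr12:54338951-54338994 on the plus strand.
HOXA2: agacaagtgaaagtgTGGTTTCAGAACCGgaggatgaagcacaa
HOXA11: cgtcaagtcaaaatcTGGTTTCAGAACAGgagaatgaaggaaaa
HOXB13: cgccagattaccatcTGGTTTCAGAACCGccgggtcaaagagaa
HOXC13: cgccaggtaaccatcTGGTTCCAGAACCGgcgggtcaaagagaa
The core was read from the genes themselves: the anchor TGGTTNCA occurred once in the coding sequence of each of the 39 HOX genes, and letters that all of them share were added. By this construction the core matches once in each HOX gene. Searched on the coding strand alone, it also occurred in 0.739% of 4195 other protein-coding genes of the same 4 chromosomes. The likeness did not extend over a read of the full 75 nt, and reads left shorter by trimming were not examined. No stretch of the read length of 75 nt was shared between members of different clusters, and the longest stretch shared by any of 42 pairs of paralogues ranged from 11 to 62 nt. Within clusters, HOXB3 and HOXB6, HOXC4 and HOXC6, and HOXD10 and HOXD11 shared such stretches, as they have exons in common.

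The strand of each count follows from 2 settings that the methods of the study name. The LNCaP reads were mapped as a library whose first read has the sense of the RNA, and paired-end stranded reads were counted in reverse mode, which expects the second read to have it. With both settings, a pair counts for a gene when it comes from the strand opposite to that gene. The count listed for a HOX gene is then a count of pairs from its antisense strand, and the count listed for an antisense transcript is a count of pairs from the strand of the HOX genes. HOXA and HOXB genes lie on the minus strand, and their listed counts come from the plus strand. HOXC and HOXD genes lie on the plus strand, and theirs come from the minus strand. A pair from the strand of a HOX gene with no annotated exon opposite it was listed for no gene.

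Only a small share of the pairs was listed for genes. Of 148700190 uniquely placed pairs, 6.39% were listed for genes, 9495309 in all, and 93.5% fell on no annotated feature of the counted strand. The protein-coding genes had a median of 6 counts. The luminal prostate markers all had at least 1 count, from 8 for HOXB13 to 6947 for KRT8, a keratin of simple epithelia, with 18 for KLK3. Exons of another gene face 525 nt of KRT8 and 525 nt of KRT18, which had 595 counts. Whether those exons are the source of the KRT8 pairs was not tested. Of the basal markers, KRT5 was at 0 and KRT14 and TP63 were at 1. Leukocyte PTPRC was at 1, and the neuroendocrine genes SYP and CHGA were at 64 and 52. ACTA2, VIM and DES, of stroma, were at 31, 13 and 0. As these counts too come from the opposite strand, they check the labelled cell type only weakly.

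HOX genes were listed with low counts. Their 39 counts summed to 242 pairs, with a median of 0 against 6 for protein-coding genes. At least 1 count was listed for 18 HOX genes (46.2%), against 73.7% of protein-coding genes, 49.4% of lncRNA genes and 44.6% of all genes in the table. At least 10 counts were listed for 6 HOX genes (15.4%), against 44.2%, 28.4% and 24.3% in the same order. HOXA2 alone reached 100 counts, where 13.6% of protein-coding genes, 11.9% of lncRNA genes and 7.74% of all genes did. Of the other HOX genes, HOXB13 had 8 counts, 11 had 1 to 3, and 21 had none, which allows up to 3 counts each.

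HOXA2 and HOXA11 stood above the rest. HOXA2, a group 2 gene that patterns the hindbrain and second pharyngeal arch, had 117 counts with an exact Poisson 95% interval of 96.8 to 140, more than 87.7% of protein-coding genes. Per kilobase of exons this was 50.2 counts, with an interval of 41.5 to 60.1. HOXA11, a group 11 gene of the forelimb and the uterus, had 52 counts (38.8 to 68.2), more than 79.6% of protein-coding genes, or 19.5 per kilobase (14.6 to 25.5). The intervals express the error of counting alone: pairs can be copies of 1 molecule, and the libraries carried no molecular identifiers that would show it. Together HOXA2 and HOXA11 held 169 of the 242 pairs, or 69.8% (exact binomial interval 63.6 to 75.5%).

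The next genes could not be put in an order. HOXC13, which acts in hair and nails, had 12 counts or 5.09 per kilobase (2.63 to 8.89). Its interval lay below that of HOXA11 and overlapped those of the 6 genes named next. HOXC6 had 12 counts and 3.47 per kilobase, HOXC11 had 10 and 3.06, HOXB13 had 8 and 2.63, and HOXB3 had 12 and 1.62. HOXB7 and HOXA5 had 3 counts each, or 1.97 and 1.74 per kilobase. These 9 genes were the only HOX genes above 1.22 counts per kilobase, the median of protein-coding genes.

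By cluster, the counts were concentrated in HOXA, and within it in HOXA2 and HOXA11. The 11 HOXA genes, on chromosome 7, had 179 counts (154 to 207), or 5.81 per kilobase. HOXA2 made up 65.4% of them (exact binomial interval 57.9 to 72.3%), and HOXA2 and HOXA11 together had 169 of the 179. Between HOXA2 and HOXA11 the counts were low: HOXA3 and HOXA5 had 3 each, HOXA10 had 2, HOXA6 and HOXA7 had 1 each, and HOXA4 and HOXA9 had none. HOXA13, posterior to HOXA11, was at 0 as well. The HOX genes next to HOXA2 and HOXA11 were all at 3 counts or fewer.

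The 9 HOXC genes, on chromosome 12, had 35 counts (24.4 to 48.7), or 1.51 per kilobase. They came almost whole from HOXC6, HOXC11 and HOXC13, with 1 further count for HOXC9. HOXC4, HOXC5, HOXC8, HOXC10 and HOXC12 were at 0. Of the exonic nucleotides of HOXC5, 67.3% are shared with another gene of the same strand in the annotation used here, where pairs would be listed for neither gene, and the part of this in its count was not tested.

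The 10 HOXB genes, on chromosome 17, had 25 counts (16.2 to 36.9), or 0.881 per kilobase. HOXB3 had 12, HOXB13 had 8, HOXB7 had 3 and HOXB2 had 2. HOXB2 and HOXB3 act in the hindbrain. The 6 others were at 0, and they included HOXB5, which retinoic acid induces in embryonal carcinoma cells, and the run from HOXB4 to HOXB6.

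The 9 HOXD genes, on chromosome 2, had 3 counts in all (0.619 to 8.77), or 0.144 per kilobase. HOXD3, HOXD12 and HOXD13 had 1 each. HOXD1, HOXD4, HOXD8, HOXD9, HOXD10 and HOXD11 were at 0. The intervals of the sums put HOXA above the other clusters and HOXD below them, while those of HOXB and HOXC overlapped. The place of HOXA rests on HOXA2 and HOXA11.

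Along the axis, genes at both ends had more counts than those between. The 8 anterior genes (groups 1 to 3) had 135 counts or 4.98 per kilobase, the 15 central genes (groups 4 to 8) had 20 or 0.634, and the 16 posterior genes (groups 9 to 13) had 87 or 1.96. A single gene made most of each higher sum: 117 of the 135 anterior counts were of HOXA2, and 52 of the 87 posterior counts were of HOXA11. All genes of groups 1, 4 and 8 were at 0. Paralogues differed widely: in group 2, HOXA2 had 117 counts and HOXB2 had 2, and in group 11, HOXA11 had 52, HOXC11 had 10 and HOXD11 had none. In group 13, the counts were 12 for HOXC13, 8 for HOXB13, 1 for HOXD13 and 0 for HOXA13.

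The antisense transcripts of the list were nearly without counts. HOTAIR had 2 (0.242 to 7.22), and HOTTIP, HOTAIRM1 and HOXA11-AS had none. As listed, these are pairs from the strand of the HOX genes: the plus strand of the HOXC cluster for HOTAIR and the minus strand of the HOXA cluster for the other 3. They give no measure of the antisense transcripts themselves.

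Counts from both strands could be set side by side where a HOX gene and an annotated gene on the other strand share exons. Each count covers all exons of its gene, not the shared part alone. HOXA11 and HOXA11-AS share 726 nt of exons. HOXA11 was listed with 52 pairs, which come from the strand of HOXA11-AS, and HOXA11-AS with none from the strand of HOXA11. The share of the latter was 0% (exact binomial interval 0 to 6.85%). Of the shared stretch, 638 nt are coding in HOXA11, and 150 of them, at chr7:27224126-27224275, are printed on the minus strand, the coding strand of HOXA11, to show the sequence over which both strands are annotated as exons. It has 79.3% G and C.
HOXA11 opposite HOXA11-AS: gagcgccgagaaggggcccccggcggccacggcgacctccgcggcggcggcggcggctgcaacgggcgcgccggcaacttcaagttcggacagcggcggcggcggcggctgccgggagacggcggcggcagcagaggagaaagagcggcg
A table of counts does not say where in HOXA11 the 52 pairs lie.

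HOXA2 differs from HOXA11 in that no annotated exon lies opposite it. Its 117 pairs come from the plus strand, and the nearest gene on that strand is HOTAIRM1, which runs toward HOXA2 and ends 88 nt before the 3′ end of HOXA2. The whole stretch between them, chr7:27139885-27139972 of GRCh37, is printed on the plus strand, because it separates the end of an annotated plus-strand transcript from the HOX gene with the most listed pairs.
Between HOTAIRM1 and HOXA2: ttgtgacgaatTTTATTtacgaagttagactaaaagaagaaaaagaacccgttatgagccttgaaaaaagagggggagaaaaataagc
The polyadenylation hexamers AATAAA and ATTAAA, which do not overlap each other here, were searched on both strands. The plus strand held none, and the minus strand held 1, shown in capitals as its reverse complement. One of the hexamers on either strand occurs in 15.5% of 6929 stretches of the same length tiled over the windows of the 4 clusters. HOTAIRM1 itself was at 0, but its count refers to the minus strand, so it says nothing of plus-strand pairs before HOXA2.

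In HOXA, HOXB and HOXC, more pairs were listed for annotated genes opposite the HOX genes than for the HOX genes. In this order the counts were 466 against 179, 1923 against 25 and 49 against 35. The HOXC difference was small, and 38 of the 49 pairs were listed for HOXC13-AS. The shares that follow are of the pairs of all genes in a window, HOX genes or not. Counted over the whole of each cluster with 10 kb on either side, 656 pairs were listed in the HOXA window, and 71.0% of them (exact binomial interval 67.4 to 74.5%) were listed for genes on the other strand than the HOX genes, and so come from the strand of the HOX genes. In the HOXB window the share was 81.1% of 2372 pairs (79.4 to 82.6%). In the HOXC window it was 16.3% of 300 pairs (12.3 to 21.0%), and in the HOXD window 0 of 6 pairs. A single gene made much of 3 of these shares. Without the gene with the highest count they were 51.2% for HOXA (without HOXA-AS3), 28.4% for HOXB (without PRAC2) and 57.0% for HOXC (without FLJ12825, a lncRNA gene on the HOX strand that starts 2223 nt past HOXC4 and had 214 counts).

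In the HOXA window the opposite genes with at least 10 counts were HOXA-AS3 with 267 (236 to 301), HOXA-AS2 with 101 (82.3 to 123) and HOXA10-AS with 95 (76.9 to 116). The exons of HOXA-AS3 lie opposite 1507 nt of HOXA7, 505 nt of HOXA6, 290 nt of HOXA3 and 31 nt of HOXA4. Those of HOXA-AS2 lie opposite 455 nt of HOXA3 and 254 nt of HOXA4, and those of HOXA10-AS opposite 608 nt of HOXA10 and 422 nt of HOXA9. The HOX genes concerned had 0 to 3 counts, so that on the HOX strand of this stretch, from HOXA3 to HOXA10, more pairs were listed than on the antisense strand. HOXA7, of which 62.5% of the exonic nucleotides face HOXA-AS3, had 1 count against 267 for the whole of HOXA-AS3. The exons of HOXA-AS3 cover 5967 nt, of which 1507 nt face HOXA7. Where in those exons the 267 pairs lie is not known.

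In the HOXB window HOXB-AS3 had 124 counts (103 to 148), with exons opposite 425 nt of HOXB6, 77 nt of HOXB3 and 73 nt of HOXB5. HOXB-AS1 had 13, opposite 374 nt of HOXB3 and 87 nt of HOXB2. HOXB6 and HOXB5 were at 0, and HOXB3 at 12. In the HOXC window HOXC13-AS had 38 counts, opposite 172 nt of HOXC13, and made up 76.0% (exact binomial interval 61.8 to 86.9%) of the pairs listed for it and HOXC13 together. The counts cover all exons of a gene, 1913 nt in HOXB-AS3 and 1408 nt in HOXC13-AS, not only the part that faces a HOX gene. HOXC-AS2, opposite HOXC6 and HOXC9, had 5, and HOXC-AS3, opposite HOXC10, had 4. In the HOXD window HOXD-AS2, opposite HOXD8 and HOXD3, HAGLR, opposite HOXD1 and HOXD3, and ENSG00000272729, opposite HOXD3, were all at 0.

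Over all 33 pairs of a HOX gene and an overlapping gene on the other strand, made of 25 HOX genes and 18 partners, the partner had more counts in 18, the HOX gene in 10, and both were at 0 in 5. Per kilobase of exons the partner was higher in 19 and the HOX gene in 9. Of the 25 pairs that share exons, the partner had more counts in 16 and the HOX gene in 5. Partners and HOX genes recur in several pairs, so the pairs are not independent, and each count covers the whole gene, not the shared part. HOXA11 had the largest excess of a HOX gene over its partner. HOXC11 and HOTAIR overlap by 1831 nt of their spans but share no exon, and had 10 and 2 counts.

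HOX genes were then divided by whether exons of another gene face them. The 20 HOX genes with exons of another gene opposite them had a median of 1 count, and 4 of them (20%) had at least 10. The 19 without had a median of 0, and 2 of them had at least 10, HOXA2 and HOXC11. Among protein-coding genes the medians were 24 for 7112 genes with such exons and 3 for 12292 without, and 63.9% and 32.8% had at least 10 counts. Whether the exons opposite a HOX gene are the source of its pairs was not tested.

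At the posterior end of HOXB, the neighbours HOXB13 and PRAC2 differed widely in listed pairs. HOXB13 had 8 counts (3.45 to 15.8), or 2.63 per kilobase, from its antisense strand. PRAC2, a gene expressed in prostate and colon whose end lies 4 nt from the 3′ end of HOXB13 on the other strand, had 1745 counts (1664 to 1829), or 2727 per kilobase of its 640 nt. These pairs come from the minus strand, the strand of HOXB13. PRAC2 made up 99.5% (exact binomial interval 99.1 to 99.8%) of the pairs listed for both, and 73.6% of all pairs in the HOXB window. As HOXB13 and PRAC2 do not overlap, the 99.5% compares different stretches, not both strands of 1 stretch. MIR3185, annotated on the minus strand, lies with all its 68 nt inside an exon of PRAC2 and had 397 counts (359 to 438), which come from the plus strand, that of PRAC2. Per kilobase this was 5838 counts, over a length shorter than a read of 75 nt. Within PRAC2, pairs were thus listed from both strands. As the annotation used here has no exon opposite HOXB13, pairs from the HOXB13 transcript had no gene to be listed for within its exons, and the level of its mRNA cannot be read from the table. PRAC1, next to PRAC2 on the strand of HOXB13, had 15 counts.

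The mature sequence of miR-3185 is printed because its gene had the second highest count of the 4 windows, after PRAC2. It is from RefSeq, on GRCh38.p14 at chr17:48724446-48724468 on the minus strand, with the seed, bases 2 to 8, in capitals.
miR-3185: aGAAGAAGgcggucggucugcgg
The pairs listed for MIR3185 are from poly(A)+ RNA of the other strand, and so are no measure of this miRNA. The HOX cluster miRNAs MIR196A1, MIR196A2, MIR196B, MIR10B and MIR615 were at 0.

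Among the other 41 genes of the windows, 18 were at 0. At least 10 counts, which 24.3% of all genes, 28.4% of lncRNA genes and 44.2% of protein-coding genes had, were listed for 15 of them. Besides those named, they were LINC02086 with 11, the pseudogenes RPL9P28 and COX6B1P2 with 10 each, and ENSG00000242407 with 17 in the HOXB window, and ENSG00000253508 with 11 in the HOXA window, whose 3′ end lies 1340 nt from HOXA11 and which faces 141 nt of exons of HOXA11-AS.

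The study measured HOXB5 by qPCR in embryonal carcinoma cells treated with retinoic acid, and it lists qPCR primers for HOXD1. Both genes were at 0 here, in LNCaP cells. The primers are printed because they show which part of each gene they were designed for. qHOXB5-F is at chr17:46669725-46669742 on the plus strand, within coding sequence that faces an exon of HOXB-AS3, and qHOXB5-R at chr17:46670501-46670518 on the minus strand. qHOXD1-F1 is at chr2:177053923-177053940 on the plus strand and qHOXD1-R1 at chr2:177054026-177054044 on the minus strand.
qHOXB5-F: aggtagcggttgaagtgg
qHOXB5-R: tattcccctggatgagga
qHOXD1-F1: gtccactacgccacctcg
qHOXD1-R1: tcggctgacgctttgagac
On the genome the primers span 794 nt at HOXB5 and 122 nt at HOXD1. As the table lists pairs from the antisense strand, the counts of 0 set no limit on HOXB5 or HOXD1 mRNA.

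Genes that act with or on HOX genes were looked up in the same table, again with counts from their opposite strands. Of the TALE homeodomain cofactors, which bind DNA with HOX proteins, 4 of 9 had at least 10 counts, with a median of 4 and MEIS1 at 46, and PBX3 was at 0. Of the Polycomb genes, which silence the clusters, 9 of 18 had at least 10, with a median of 8, RBBP7 at 112 and PHF1 at 71, and none was at 0. Of the trithorax genes and other activators, 8 of 12 had at least 10, with a median of 17, PSIP1 at 954 and KMT2A at 201, and KMT2B and WDR5 were at 0. Of 7 upstream regulators, with a median of 0, the retinoic acid receptors RARB and RARA had 28 and 17, and CDX1, CDX2, CDX4 and CYP26A1 were at 0. The share with at least 10 counts was 44.4%, 50%, 66.7% and 28.6% in the order given, beside 44.2% of all protein-coding genes and 15.4% of HOX genes.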

How the data were processed

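Libraries from 2 LNCaP replicates were sequenced in paired-end mode. According to the methods and the submitters' processing notes, trimming used Trimmomatic 0.30, mapping to hg19 used TopHat2 2.0.12 and Bowtie2 2.2.3 (library type fr-secondstrand) and counting used HTSeq 0.6.1p1 (reverse mode for paired-end stranded data). The authors deposited raw counts per gene, without normalization, as 1 column for both replicates, with 5 summary categories that were kept out of the totals. Identifiers were matched without version to GENCODE 44 on GRCh37, the same build as hg19. For 41 of the 43 members the version in the table differs from that of the annotation, so exon models may differ, and 6259 genes of the table with XLOC names have no position here.

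Counts per kilobase use the union of annotated exons. Intervals are exact Poisson (counts) and exact binomial (Clopper-Pearson, shares) at 95%, and genes at 0 are given an upper bound of 3 counts, which is one-sided, unlike the intervals. The number of pairs listed for genes, 9495309 of 148700190 uniquely placed pairs, limits the precision. No test was possible with 1 condition. Named genes were all members, genes of the windows (10 kb on either side) with at least 10 counts or with exons opposite a member, the 2 highest genes and those at 0 of each cofactor list, and HOXB2, HOXB3, HOXB5 and HOXD1. The cluster miRNAs at 0 and the cell type markers were named besides, with their values known. Some genes that this rule names are not reported here. The members and lists were chosen with earlier results of these data known. Alternatives were other minimum counts, flanks, length measures, library sizes and the leaving out of the highest gene. The computations used Python 3.11.15, numpy 2.4.6, scipy 1.17.1 and matplotlib 3.10.9, and were tested on simulated data.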

Additional observations from a re-analysis of the deposited data

How the results depend on the processing

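For 24 results, 47 values were recomputed, and 12 moved beyond their counting interval or by over 1.5 times. With a minimum of 20 counts instead of 10, 2 members passed, HOXA2 and HOXA11, and with a minimum of 5, 7 did. The order of the clusters by listed counts was the same per kilobase, with the place of HOXA resting on HOXA2 and HOXA11. The median count was 3 among the members with at least 1 count, and the median of the members was below that of protein-coding genes by counts and per kilobase. The share of pairs listed for genes opposite the HOX genes crossed 50% in HOXB and HOXC. Without the gene with the highest count it was 51.2% in HOXA, 28.4% in HOXB and 57.0% in HOXC. For HOXC it was also 57.0% without flanks and 21.3% with 50 kb on either side. Without flanks, FLJ12825 is left out, and the source of the change at 50 kb was not tested. For HOXB it was 97.4% without genes under 100 nt, a setting chosen after the data were seen, which removes MIR3185. HOXB3 had 2.85 counts per kilobase of its longest transcript. HOXA2 had a CPM of 12.3 by the pairs on genes, 23.9 without the 3 highest genes and 0.787 by the uniquely placed pairs, and HOXA11 had 5.48, 10.6 and 0.350.

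No paired analysis was possible because both replicates stand in 1 column and there is 1 group. For the same reason no replicate could be left out. The limits are that counting error is the only error given, that 21 HOX genes at 0 cannot be told from genes with up to 3 counts, and that the strand rests on the stated settings, not on the reads.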
